A study of Mus musculus with 12 samples.

Results

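The nuclear genes of the mitochondrial respiratory chain and the ATP synthase were followed across 4 groups of cultures of MMT cells, an established line from a mouse mammary tumour. Members were all array probes whose only annotated gene symbol begins with Nduf, Uqcr, Atp5 or Cox4 to Cox8, or is Sdha, Sdhb, Sdhc or Sdhd. This rule uses names alone and found 66 probes for 65 genes, of 14411 probes (13840 genes) with 1 symbol and 33012 probes on the array. Complex I had 27 subunit probes and 4 probes of assembly factors, complex II had 4 probes, complex III had 6, complex IV had 12 and complex V had 13, Atp5j being measured by a pair of probes.

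The groups were cells transfected with siRNA directed at Pea3 (4 arrays, siPea3) or at Erm (3 arrays, siErm) or with control siRNA (3 arrays, siCtrl), and cells left untransfected (2 arrays), all grown in serum-containing medium. The series design calls the replicates biological and gives the untransfected cells as the check on what transfection itself alters. Pea3 and Erm are older names of Etv4 and Etv5, ETS-family transcription factors. Total RNA was amplified, labelled with digoxigenin and read by chemiluminescence on single-colour Applied Biosystems arrays, 1 array per culture. Because whole cultures were measured, fewer cells expressing a gene and less of its RNA per cell cannot be told apart.

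Complexes I and II pass electrons from NADH and succinate to ubiquinone, complex III passes them on to cytochrome c, and complex IV to oxygen. Complexes I, III and IV pump protons across the inner mitochondrial membrane, and complex V, the ATP synthase, lets them return while it makes ATP. Most subunits are nuclear genes, and many of their promoters are known targets of NRF1 and of GABP, whose alpha subunit is itself an ETS protein.

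Between 11286 (siPea3 array 2) and 13836 (untransfected array 1) probes were detected per array, meaning that signal was at least 3 times its noise. On siPea3 array 2 the upper quartile was 7.47, and on the other 11 it lay between 10.2 and 14.4. Etv4 signal was 19.0 ± 2.17 in siPea3 cells (n = 4), 34.9 ± 9.77 in siErm cells (n = 3), 36.9 ± 5.89 in siCtrl cells (n = 3) and 41.3 ± 0.75 in untransfected cells (SD, n = 2). Etv5 signal was near background, at most 2.77, on all siPea3, siErm and siCtrl arrays. In untransfected cells it was 23.7 on 1 array and near background on the other. Etv5 was detected on 0 siPea3, 0 siErm, 2 siCtrl and 1 untransfected arrays. Its low signal in both siErm and siCtrl cells leaves the Erm knockdown unchecked. Of the epithelial markers, Krt8, Krt18, Krt14 and Cldn4 were detected on all 12 arrays and Epcam, Cdh1 and Krt5 on 0. The leukocyte genes Ptprc and Cd3e were detected on 0 arrays and Itgam on 1. Of the mesenchymal markers, Vim and the pair of Cdh2 probes were detected on all 12, Pdgfrb on 10, Col1a2 on 7 and Col1a1 on 6. Of the striated muscle markers, Tnnt2 was detected on 12 arrays, Myh7 on 10, Myh6 and Acta1 on 2 each and Ckm on 1. Of the endothelial markers, Cdh5 was detected on 6, Pecam1 on 2 and Tek on 1. In siPea3, siErm, siCtrl and untransfected cells, mean signal was 410, 678, 774 and 1320 for Krt8, 73.3, 110, 124 and 407 for Krt18, 23.4, 30.6, 16.6 and 13.4 for Krt14, and 55.0, 58.2, 65.5 and 51.9 for Cldn4. Krt8 and Krt18 ran lowest in siPea3 and highest in untransfected cells, Krt14 was lowest in untransfected cells and Cldn4 followed neither order. Vim and the Cdh2 probes were also lowest in siPea3 and highest in untransfected cells, while Pdgfrb, Col1a1 and Col1a2 were lowest in siErm cells. In the same group order Myh7 averaged 23.0, 8.15, 6.63 and 0.77, and Tnnt2 went the other way, at 97.9, 115, 115 and 192. The part of these marker differences in the results below was not tested.

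Promoter sequence is shown first for a member with an ETS core, a member with an NRF1 core and a member with neither, because the siRNAs target ETS factors. Each is also among the members named below for their measured values. Any link between the motifs and those values was not tested. Ndufaf1 encodes a complex I assembly factor, Ndufa8 an accessory subunit of complex I and Atp5d the delta subunit of the ATP synthase. Each line gives the 250 bases before an annotated transcription start, 5′ to 3′ on the gene's strand, from RefSeq's promoter table (GRCm38.p6). Capitals mark CCGGAA (ETS core) or GCATGCG (NRF1 core) on either strand. The windows are chr2:119662835-119663084 (minus strand) for Ndufaf1, chr2:36049339-36049588 (minus strand) for Ndufa8 and chr10:80142025-80142274 (plus strand) for Atp5d, for which the table also holds another start.
Ndufaf1: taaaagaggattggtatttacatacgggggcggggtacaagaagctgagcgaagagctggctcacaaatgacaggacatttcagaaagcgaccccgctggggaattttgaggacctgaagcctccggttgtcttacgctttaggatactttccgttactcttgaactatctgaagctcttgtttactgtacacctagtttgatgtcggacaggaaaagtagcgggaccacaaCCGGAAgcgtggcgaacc
Ndufa8: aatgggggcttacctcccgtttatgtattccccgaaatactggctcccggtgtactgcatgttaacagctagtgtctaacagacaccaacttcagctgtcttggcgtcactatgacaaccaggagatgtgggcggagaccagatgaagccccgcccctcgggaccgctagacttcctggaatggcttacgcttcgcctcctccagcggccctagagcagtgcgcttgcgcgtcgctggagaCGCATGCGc
Atp5d: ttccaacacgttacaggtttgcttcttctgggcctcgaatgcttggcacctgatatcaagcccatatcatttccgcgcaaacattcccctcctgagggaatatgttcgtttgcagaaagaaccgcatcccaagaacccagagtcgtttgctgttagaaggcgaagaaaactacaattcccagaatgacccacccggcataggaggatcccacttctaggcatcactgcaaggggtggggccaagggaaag
The ETS core of Ndufaf1 begins 18 bases before the start. In Ndufa8 the NRF1 letters read on both strands and overlap, beginning 9 and 8 bases before the start. No match to either motif lies in the printed window of Atp5d. Over windows that also take in the 50 bases after the start, the ETS core was present in 20 of 59 member promoters (33.9%), against 14.9% of all 32851 promoters in the table. The NRF1 core was present in 9 of the 59 (15.3%), against 3.58% of all promoters. These 59 promoters belong to 55 of the 65 member genes. The table did not match Sdhc, Ndufs1, Ndufa2, Ndufs5-ps, Cox4i1, Cox4i2, Uqcrq, Uqcrc2, Atp5mpl and Ndufb9. A match is a description of the letters and not evidence of binding.

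Nearly the whole set was expressed in MMT cells. Of the 66 member probes, 59 (89.4%) were detected on every array, against 40.3% of all probes with 1 symbol. The 62 that were detected on at least 2 arrays were tested. Isoforms known from particular tissues made up most of the rest. Cox4i2, known from lung, Cox6b2, known from testis, and Cox8b, known from heart and skeletal muscle, were detected on 0 arrays. Their counterparts Cox4i1, Cox6b1 and Cox8a were detected on all 12. Cox7a1, the heart and muscle isoform of subunit 7a, was detected on 3 siPea3 arrays, 0 siErm arrays, 1 siCtrl array and 0 untransfected arrays, at signals between 0.98 and 4.35. Cox7b2 was detected on all 12. Sdhb, the iron-sulfur subunit of complex II, passed on 1 array only (untransfected array 2, signal 2.34), so this probe gives no usable level. The 3 genes for subunit c of the ATP synthase, Atp5g1, Atp5g2 and Atp5g3, were each detected on every array. The probe annotated to Ndufs5-ps, a pseudogene, was detected throughout, and signal from Ndufs5 itself could not be separated from it.

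**Figure D1:**
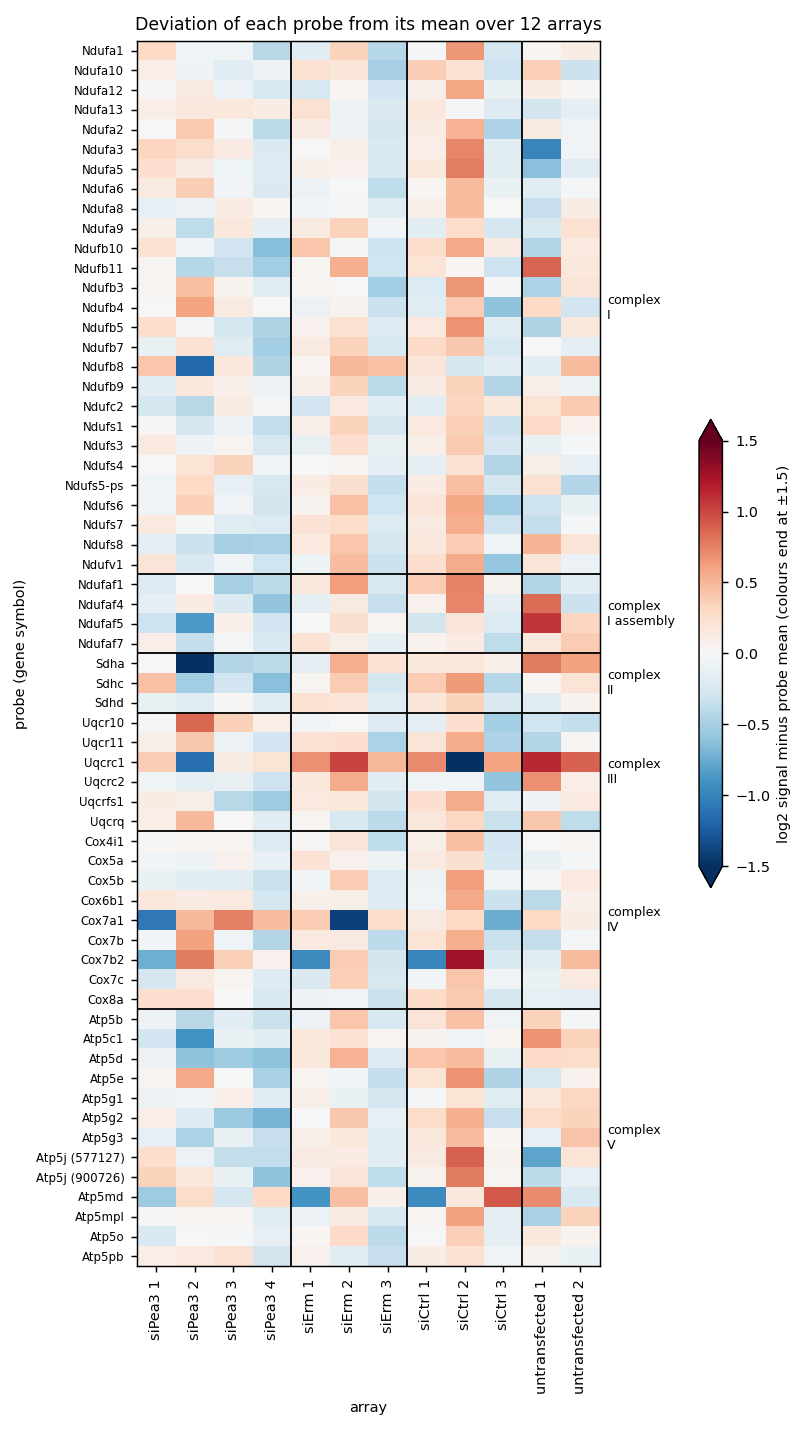
Log2 signal of the 62 tested member probes (rows, grouped by complex) on the 12 arrays (columns), as deposited, each as the difference from that probe's mean over all arrays. Red is above the mean and blue below, with colours ending at 1.5. The column of siCtrl array 2 is mostly red and those of siErm array 3 and siCtrl array 3 mostly blue. Uqcrc1 on siCtrl array 2 and Sdha on siPea3 array 2 reach the darkest blue.

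No respiratory chain or ATP synthase probe passed in any of the 4 comparisons. The count was 0 of 62 in limma at an adjusted p under 0.05, under the chosen settings and in all 61 alternative fits, counted over the comparisons together. Over all 16724 tested probes the same fit called 0.0359% for siPea3 against siCtrl, 0% for siErm against siCtrl, 1.02% for siCtrl against untransfected cells and 0.00598% for siPea3 against siErm. At an unadjusted p under 0.05 the members numbered 2 of 62 (3.23%), 0, 1 (1.61%) and 2 (3.23%) in the same order, against 13.4%, 2.03%, 11.4% and 10.3% of all probes. The intervals were also narrow for this array. The 95% interval of the change lay within 1 log2 unit of 0 for 48, 51, 40 and 49 of the 62 members, against 29.2%, 42.3%, 22.3% and 33.2% of all probes. For the other members a change of more than that size, in at least 1 direction, lies inside the interval.

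Spread within groups was smaller for the members than for the array as a whole. The median residual SD was 0.31 log2 units over the 62 members and 0.51 over all tested probes. Among probes detected on every array it was 0.30 for 59 members and 0.35 for 9160 probes. Ndufa13 (0.15), Atp5g1 (0.15) and Cox5a (0.16) varied least. Uqcrc1 (1.71), Cox7b2 (0.79), Cox7a1 (0.77) and Atp5md (0.68) varied most.

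**Figure D2:**
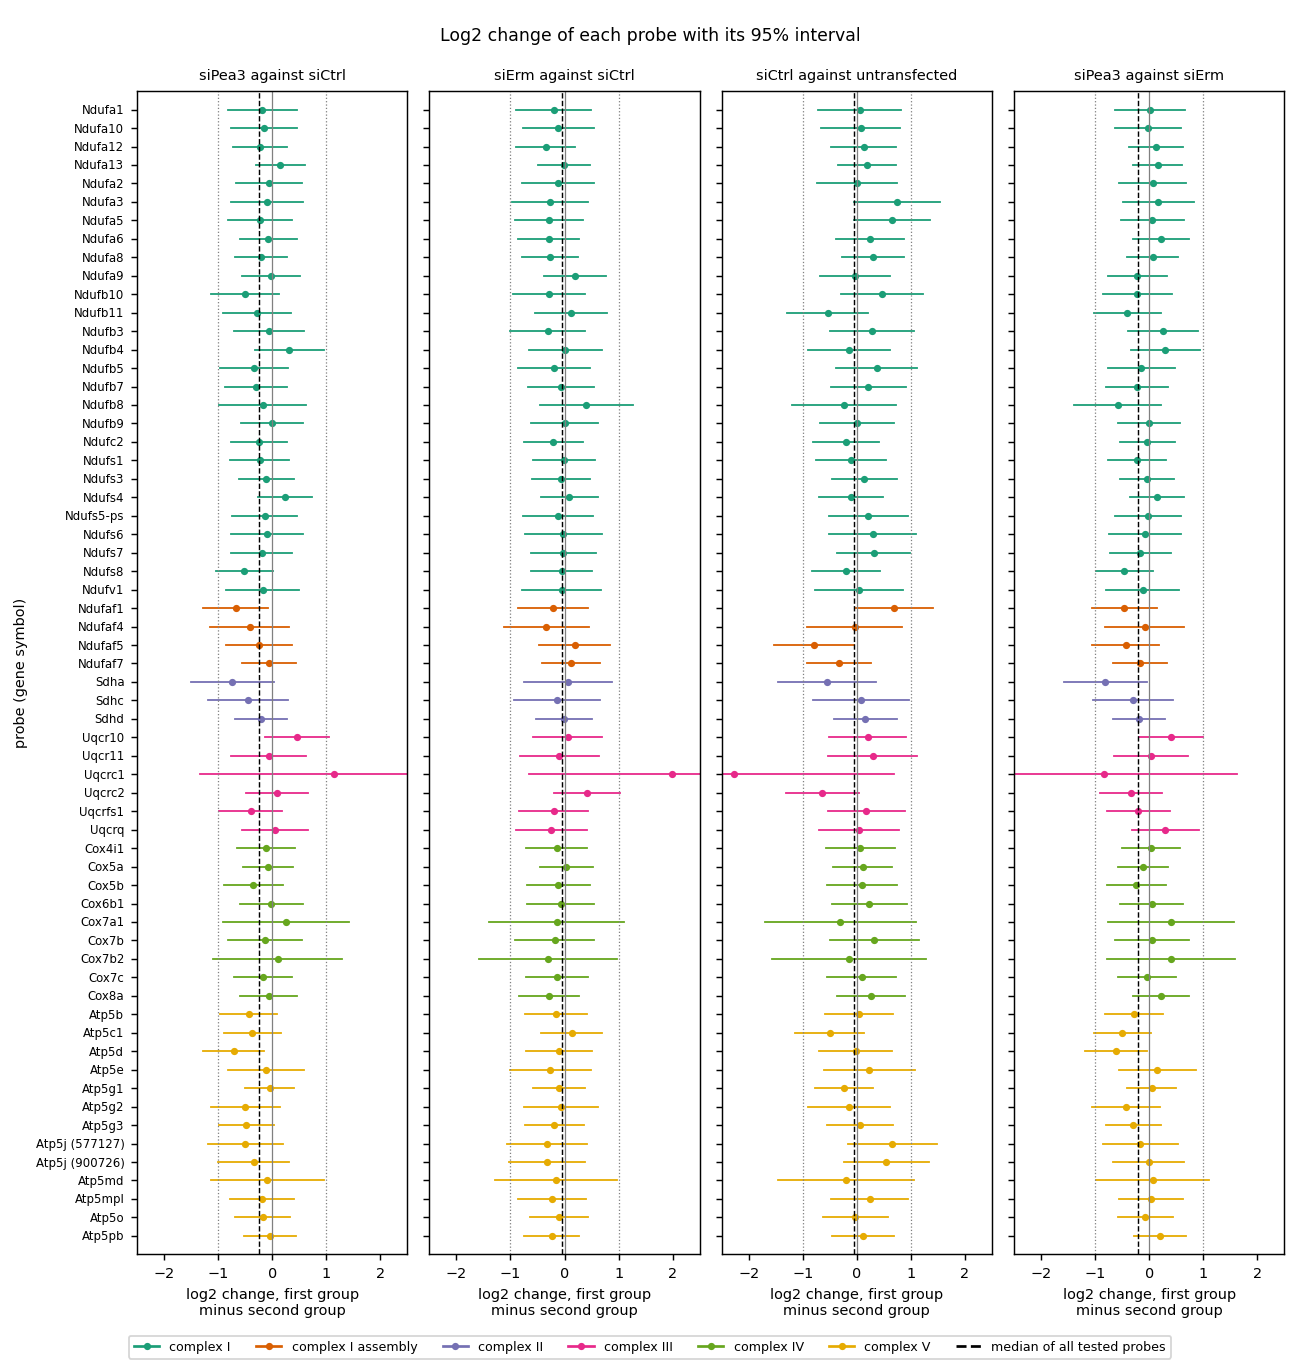
Log2 change of each of the 62 tested member probes (rows) in the 4 comparisons (panels), the first-named group minus the second, with 95% intervals from limma. Colours mark complexes, dotted lines a change of 1, and the dashed line the median of all 16724 probes; values beyond 2.5 are drawn at the edge, and no probe passed the test.

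With Pea3 siRNA, 53 of the 62 members had estimates below 0 against siCtrl cells (85.5%), where 69.4% of all probes did. The median was -0.17 log2 for the members and -0.24 for all probes, so relative to the array the members stood 0.07 higher. That relative value was 0.16 after quantile normalization, and it turned to -0.090 with no filter on dim probes, -0.0074 without siPea3 array 2 and -0.019 without siCtrl array 3. All 13 ATP synthase probes (median -0.34), all 3 tested complex II probes (-0.45) and all 4 complex I assembly factors (-0.33) had estimates below 0. So did 24 of the 27 complex I subunits (-0.18) and 7 of the 9 complex IV subunits (-0.08). In complex III 4 of 6 were above 0 (median 0.07). The direction depended on the scaling. After quantile normalization 44 of 62 members were above 0 (median 0.11, all probes -0.05). After scaling to probes detected on every array 46 were (median 0.14, all probes 0.07). That scaling moved all probes alike, and the members still stood 0.07 above them. The ATP synthase probes then split into 6 above and 7 below 0 under either scaling, while 22 and 24 of the 27 complex I subunits and 8 of the 9 complex IV subunits were above 0. Without siCtrl array 2 the split was 32 above and 30 below (median 0.02, all probes -0.18).

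The siPea3 and siCtrl arrays did not overlap for 7 members, all lower in siPea3 cells (11.3%, against 12.4% of all probes), and for 0 in the other direction (against 2.84%). These were Ndufs8, Ndufaf1, Sdha, Cox5b, Atp5b, Atp5c1 and Atp5g3. The share is close to that of the array. Overlap was counted on deposited signals only, here and in the other comparisons. Scaling to detected probes moved the median deviation of all probes on siPea3 array 2 from -0.29 to 0.19. On siCtrl array 2 it moved from 0.28 to -0.015. Whether the arrays stay apart under that scaling was not examined.

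In complex I, Ndufaf1 signal was 15.4, 17.7, 12.6 and 13.5 on the siPea3 arrays, 19.9, 27.4 and 15.0 on the siErm arrays, 23.1, 29.9 and 18.5 on the siCtrl arrays and 13.2 and 15.8 on the untransfected arrays. As deposited, every siPea3 array lay below every siCtrl array, and the siPea3 and untransfected arrays overlapped. The log2 difference between siPea3 and siCtrl cells was -0.67 ± 0.27 (SE, 95% interval -1.27 to -0.07, adjusted p = 0.33 in limma). Ndufs8, an iron-sulfur subunit of the catalytic core, read 107, 94.95, 83.8 and 84.7 in siPea3 cells, 132, 159 and 98.7 in siErm cells, 133, 154 and 113 in siCtrl cells and 169 and 136 in untransfected cells. As deposited, the siPea3 arrays lay below all siCtrl and untransfected arrays, and 1 of them above the lowest siErm array. Its log2 difference between siPea3 and siCtrl cells was -0.52 ± 0.24 (adjusted p = 0.376 in limma). The 4 other measured core subunits, Ndufs1, Ndufs3, Ndufs7 and Ndufv1, had estimates from -0.23 to -0.11, all of which turned positive when scaled to detected probes. Of the 22 accessory probes 19 were below 0, with a median of -0.14, in the values as deposited. Ndufb4 (0.32 ± 0.29) and Ndufs4 (0.24 ± 0.23) were among the 3 above 0.

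In complex II, Sdha, the flavoprotein subunit that oxidises succinate, read 101, 33.6, 74.0 and 76.9 in siPea3 cells, 91.1, 147 and 117 in siErm cells, 112, 113 and 107 in siCtrl cells and 173 and 153 in untransfected cells. The siPea3 arrays were the lower ones against siCtrl and untransfected cells, and siPea3 array 2, the array with the fewest detected probes, was the lowest of all. The log2 change was -0.74 ± 0.35 against siCtrl (adjusted p = 0.383 in limma) and -0.41 without siPea3 array 2. Sdhc, a membrane anchor of the complex, averaged 125 ± 46.2 in siPea3 cells (n = 4) and 171 ± 59.7 in siCtrl cells (SD, n = 3), with overlapping arrays (log2 -0.45 ± 0.34, or -0.22 without siCtrl array 2).

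In complex III, Uqcr10, a small accessory subunit, read 463, 854, 603 and 505 in siPea3 cells, 457, 471 and 412 in siErm cells, 428, 559 and 331 in siCtrl cells and 383 and 367 in untransfected cells. Its siPea3 arrays lay above both untransfected arrays and overlapped the siErm and siCtrl arrays (log2 0.46 ± 0.27 against siCtrl, adjusted p = 0.464 in limma). The estimate was 0.28 without siPea3 array 2, 0.27 without siCtrl array 3, 0.70 after quantile normalization and 0.77 when scaled to detected probes. Uqcrfs1, the Rieske iron-sulfur protein, averaged 277 ± 63.4 in siPea3 cells (n = 4) and 366 ± 89.7 in siCtrl cells (SD, n = 3), a log2 difference of -0.40 ± 0.27, or -0.23 without siCtrl array 2.

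Uqcrc1, a core protein of complex III, was set by 1 measurement. It read 115, 40.7, 95.9 and 102 in siPea3 cells, 143, 179 and 126 in siErm cells, 145, 2.67 and 135 in siCtrl cells and 196 and 165 in untransfected cells. The value of 2.67 on siCtrl array 2 counted as detected and carried no failure mark. With it, the log2 estimate was 1.14 for siPea3 against siCtrl, 1.98 for siErm against siCtrl and -2.26 for siCtrl against untransfected cells. Without that array the estimates were -0.76, 0.08 and -0.36. None passed either way.

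In complex IV, Cox5b, a nuclear subunit on the matrix side of the enzyme, read 253, 242, 243 and 215 in siPea3 cells, 265, 353 and 235 in siErm cells, 258, 420 and 259 in siCtrl cells and 268 and 301 in untransfected cells. The siPea3 arrays lay just below the siCtrl arrays, of which array 2 stood far above the others, and the log2 difference was -0.35 ± 0.25 (adjusted p = 0.528 in limma), or -0.12 without that array. Cox7c, a small subunit, averaged 651 ± 85.5 in siPea3 cells (n = 4) and 739 ± 145 in siCtrl cells (SD, n = 3), and its estimate of -0.18 turned positive under both scalings named above. Cox7b2 was lowest on array 1 and highest on array 2 in each transfected group, at 54.2, 155, 116 and 94.5 in siPea3 cells, 46.6, 117 and 74.2 in siErm cells and 45.4, 218 and 77.0 in siCtrl cells. In untransfected cells it read 80.8 and 125. The groups overlapped throughout.

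In the ATP synthase, Atp5d had the smallest p of all members. It read 155, 108, 113 and 107 in siPea3 cells, 182, 234 and 143 in siErm cells, 218, 226 and 152 in siCtrl cells and 200 and 198 in untransfected cells. Array 1 of the siPea3 group stood apart from the other siPea3 arrays and lay above the lowest siErm and siCtrl arrays, while the other siPea3 arrays lay below all arrays of the other groups. The log2 change was -0.71 ± 0.26 against siCtrl (95% interval -1.28 to -0.15, adjusted p = 0.296 in limma) and -0.62 ± 0.26 against siErm (adjusted p = 0.465). Atp5b, the catalytic beta subunit, read 1618, 1271, 1527 and 1349 in siPea3 cells, 1604, 2262 and 1441 in siErm cells, 1936, 2312 and 1639 in siCtrl cells and 2154 and 1659 in untransfected cells. Its siPea3 arrays lay below the siCtrl arrays by a small margin (log2 -0.44 ± 0.24, adjusted p = 0.441 in limma). Atp5g3, a gene for the membrane ring subunit c, averaged 497 ± 60.1 in siPea3 cells (n = 4) and 695 ± 110 in siCtrl cells (SD, n = 3), a log2 difference of -0.48 ± 0.23 (adjusted p = 0.39 in limma). For the other genes of subunit c the estimates were -0.05 ± 0.20 for Atp5g1, which turned positive when scaled to detected probes, and -0.49 ± 0.29 for Atp5g2.

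**Figure D3:**
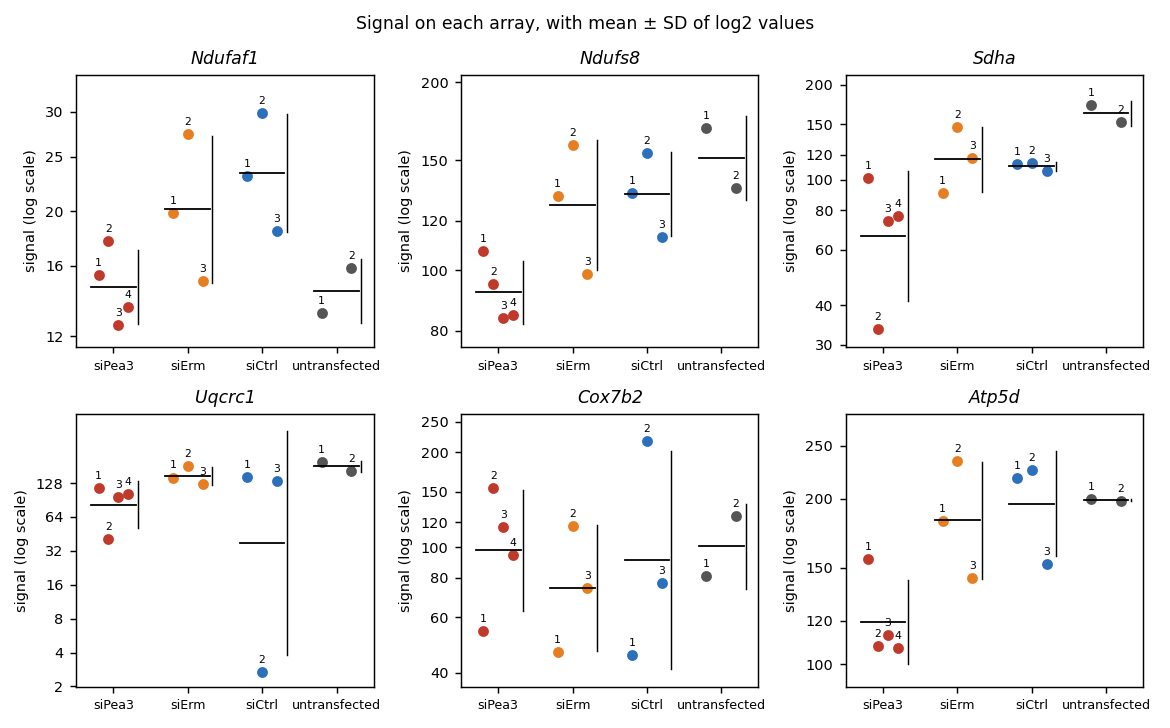
Deposited signal on each array (points, labelled with the replicate number; log axis) for 6 members in siPea3, siErm, siCtrl and untransfected cells. Horizontal bars are group means and vertical bars 1 SD, both of log2 values. Ndufaf1, Ndufs8 and Sdha lie lower on the siPea3 arrays than on the siCtrl arrays, and the siCtrl group of Uqcrc1 holds 1 value at 2.67.

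With Erm siRNA, 48 of the 62 members had estimates below 0 against siCtrl cells (77.4%, against 57.3% of all probes), with a median of -0.12 where all probes had -0.05. By complex, 21 of 27 subunits of complex I, 2 of 3 of complex II, 3 of 6 of complex III, 8 of 9 of complex IV and 12 of 13 of complex V were below 0. The sign of the median turned to 0.06 without siCtrl array 2 (all probes 0.03), with 40 members above 0. Quantile normalization left 35 below and 27 above (median -0.025, all probes -0.025). The groups did not overlap for 1 member, Ndufa8, lower in siErm cells (1.61%, against 2.89% of all probes), and for 0 in the other direction (against 2.57%). It read 382, 387 and 349 in siErm cells and 416, 549 and 394 in siCtrl cells, with the siErm arrays lower by a small margin. Its log2 difference was -0.27 ± 0.23 (adjusted p = 1.00 in limma). Ndufa12, an accessory subunit, averaged 323 ± 38.7 in siErm cells and 419 ± 105 in siCtrl cells (SD, n = 3 each), a difference of -0.35 ± 0.25. Cox8a (-0.29 ± 0.25), Atp5pb, a subunit of the peripheral stalk (-0.24 ± 0.23), and Atp5j probe 900726 (-0.33 ± 0.32) had estimates of like size. Without siCtrl array 2 the differences were -0.12 for Ndufa8, -0.16 for Ndufa12, -0.16 for Cox8a and -0.085 for Atp5j probe 900726, and without siErm array 3 Atp5pb differed by -0.14. Uqcrc2, the partner of Uqcrc1 in complex III, averaged 323 ± 82.6 in siErm cells and 240 ± 47.6 in siCtrl cells (SD, n = 3 each), with overlapping arrays and a log2 difference of 0.42 ± 0.28, or 0.23 without siErm array 2 and 0.24 without siCtrl array 3. Cox4i1 (-0.15), Sdhc (-0.14) and Sdha (0.07) changed sign when 1 array was left out.

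Control transfection gave no call among the 62 members either, in a comparison where 171 of all 16724 tested probes passed (1.02%). Against untransfected cells 40 of the 62 siCtrl estimates were above 0 (64.5%, against 46.3% of all probes), with a median of 0.07 where all probes had -0.06. Without siCtrl array 2 the median was -0.08 (all probes -0.13) and 37 members were below 0. The arrays did not overlap for 2 members that were higher in siCtrl cells (3.23%, against 12.6% of all probes), Ndufaf1 and Atp5j probe 900726, and for 6 that were lower (9.68%, against 14.2%), Ndufaf5, Ndufaf7, Sdha, Uqcrc1, Uqcrc2 and Atp5c1.

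The assembly factors of complex I went both ways in this comparison. Ndufaf1, whose arrays are given above, differed by 0.69 ± 0.33 (adjusted p = 0.455 in limma). Ndufaf5, known in human cells to modify a core subunit of complex I, read 9.26, 12.7 and 9.66 in siCtrl cells and 23.4 and 13.9 in untransfected cells, with log2 -0.79 ± 0.34 (95% interval -1.53 to -0.05, adjusted p = 0.399 in limma). It was detected on 2 of 3 siCtrl and 2 of 2 untransfected arrays, and the untransfected arrays lay apart from each other. Without untransfected array 1 the difference was -0.42.

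Uqcrc2 read 266, 268 and 185 in siCtrl cells and 450 and 300 in untransfected cells (log2 -0.64 ± 0.31, adjusted p = 0.475 in limma). Atp5c1, the gamma subunit that turns inside the F1 head, read 224, 208 and 221 in siCtrl cells and 344 and 276 in untransfected cells (-0.50 ± 0.29, adjusted p = 0.533 in limma). For both genes the siCtrl arrays were the lower ones, and the gap to the nearest untransfected array was smaller than the gap between the untransfected arrays. Without untransfected array 1 the Uqcrc2 difference was -0.34. Sdha differed by -0.56 ± 0.41, Sdhd, a membrane anchor of complex II, by 0.16 ± 0.26, Cox7b by 0.32 ± 0.37, Cox8a by 0.27 ± 0.28 and Atp5j probe 577127 by 0.65 ± 0.37. Without siCtrl array 2 these were 0.038 for Sdhd, 0.12 for Cox7b, 0.14 for Cox8a and 0.39 for the Atp5j probe, which stood at 0.15 without untransfected array 1.

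Between the siRNAs, 37 of the 62 members had estimates below 0 in siPea3 against siErm cells (59.7%, against 67.7% of all probes), with a median of -0.04 where all probes had -0.20. Scaling to probes detected on every array left 14 below and 48 above, with a median of 0.23 where all probes had 0.06. The arrays did not overlap for 2 members, Uqcrc1 and Atp5c1, both lower in siPea3 cells (3.23%, against 10.9% of all probes), and for 0 in the other direction (against 2.73%). Uqcrc1, whose arrays are given above, differed by -0.84, the lowest estimate of any member here. Its residual SD of 1.71 takes in the value of 2.67 on siCtrl array 2, which is outside this comparison. The fit of the compared groups alone, which leaves siCtrl out, also called 0 members. Atp5c1 read 178, 116, 201 and 194 in siPea3 cells and 242, 251 and 221 in siErm cells, a log2 difference of -0.50 ± 0.24 (adjusted p = 0.506 in limma). Sdha, with overlapping arrays, differed by -0.81 ± 0.35 (adjusted p = 0.47 in limma). Ndufs8 and Ndufaf1 differed by -0.46 ± 0.24 and -0.46 ± 0.27, and Uqcr10 by 0.40 ± 0.27. Without siPea3 array 2 the differences were -0.32 for Atp5c1, -0.48 for Sdha and 0.22 for Uqcr10, and without siErm array 2 they were -0.31 for Ndufs8 and -0.24 for Ndufaf1. Sdhc differed by -0.30 ± 0.34, Uqcrc2 by -0.33 ± 0.26, Cox5b by -0.24 ± 0.25 and Cox8a by 0.22 ± 0.24. This comparison shares the siPea3 arrays with the first and the siErm arrays with the second, and so gives no separate evidence for either.

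On single arrays the members moved together. Of the 62 members, 55 were highest in their group on siCtrl array 2 (88.7%, against 56.0% of all probes) and 53 were lowest on siCtrl array 3 (85.5%, against 52.9%). On siErm array 2, 47 were the highest (75.8%, against 58.0%), and on siErm array 3, 55 were the lowest (88.7%, against 54.9%). On siPea3 array 4, 38 were the lowest (61.3%, against 24.5%). Measured from each probe's mean over all arrays, the median member stood 0.45 log2 units up on siCtrl array 2, 0.24 down on siErm array 3 and 0.24 down on siPea3 array 4. On siPea3 array 2 the members were near their mean (-0.005) while all probes had a median of -0.29. After quantile normalization the median member on that array stood 0.30 up, and after scaling to detected probes 0.48 up, the highest of the 12 arrays under each. These shifts between replicates were larger than the member medians of the 3 comparisons with siCtrl cells.

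Taken by replicate number, the median member differed between siPea3 and siCtrl cells by -0.07 at number 1, -0.47 at number 2 and 0.16 at number 3. Between siErm and siCtrl cells it differed by -0.06, -0.25 and -0.06. All 3 numbers gave a lower value for 14 of the 62 members with Pea3 siRNA, a smaller share than the 29.0% of all probes. With Erm siRNA they did so for 23 of the 62, a larger share than the 20.3% of all probes.

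**Figure D4:**
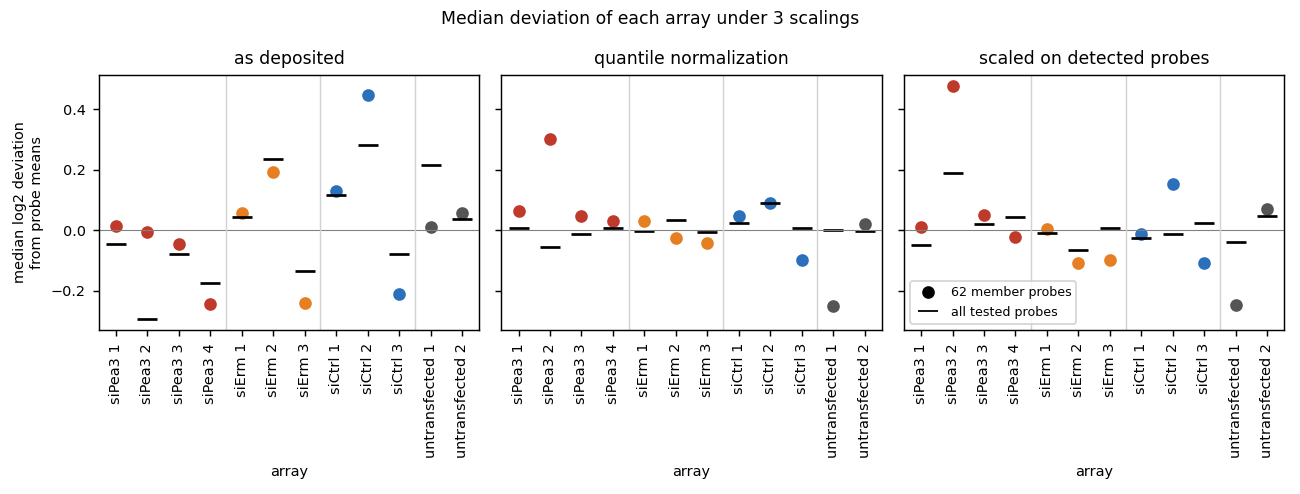
Median log2 deviation from probe means on each of the 12 arrays, for the 62 member probes (coloured points) and all tested probes (black bars), under 3 scalings (panels). As deposited, siCtrl array 2 stands at 0.45 for the members and siErm array 3 at -0.24, and under the other scalings siPea3 array 2 is the highest.

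Genes that work with these complexes were read from fixed lists, and 0 members of any list passed in limma in any comparison. At an unadjusted p under 0.05 the tricarboxylic acid cycle had 2 genes for siPea3 against siCtrl, 1 for siPea3 against siErm and 1 for siCtrl against untransfected cells, and complex IV assembly and the regulators had 1 each for the last. Over all probes 13.4%, 10.3% and 11.4% passed that threshold in these comparisons, and 69.4% and 67.7% had estimates below 0 in siPea3 against siCtrl and siPea3 against siErm cells. In the tricarboxylic acid cycle, which supplies NADH and succinate, all 10 measured genes had estimates below 0 in siPea3 against siCtrl cells (median -0.42) and 9 of 10 did after quantile normalization (-0.14). Citrate synthase, Cs, averaged 251 ± 54.6 in siPea3 cells (n = 4) and 392 ± 50.4 in siCtrl cells (SD, n = 3), with log2 -0.66 ± 0.24 (adjusted p = 0.297 in limma). Idh3g, a subunit of isocitrate dehydrogenase, differed by -0.67 ± 0.27. Against siErm cells the same 10 genes were below 0 (median -0.42), fumarase (Fh1) by -0.93 ± 0.36 and Cs by -0.42 ± 0.24. Without siPea3 array 2, 8 of 10 were below 0 (median -0.26), and 8 were when scaled to detected probes (-0.15). In siErm against siCtrl cells 8 of 10 were below 0, Cs by -0.25 ± 0.26 and Idh3g by -0.24 ± 0.29, and 5 of 10 after quantile normalization. In siCtrl against untransfected cells 8 of 10 were below 0, with Fh1 at 45.6 ± 6.44 (n = 3) and 104 ± 22.7 (SD, n = 2) and log2 -1.19 ± 0.43 (adjusted p = 0.323 in limma).

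The electron carrier cytochrome c (Cycs, a pair of probes) and cytochrome c1 of complex III (Cyc1) had 3 of 3 estimates below 0 in siPea3 against siCtrl cells, Cyc1 by -0.38 ± 0.21. The 3 were also below 0 in siErm against siCtrl cells and in siPea3 against siErm cells, and 2 were above 0 in siCtrl against untransfected cells, by at most 0.13, or 1 without siCtrl array 2. In siPea3 against siCtrl cells 2 of the 3 were above 0 after quantile normalization and when scaled to detected probes, and in siPea3 against siErm cells all 3 were above 0 under the last of these scalings. Of the 9 measured complex IV assembly genes, 8 were below 0 with Pea3 siRNA, Lrpprc, which stabilises mitochondrial transcripts, by -0.53 ± 0.31 and Cox15, needed for haem A, by -0.39 ± 0.24, but 7 of 9 were above 0 after quantile normalization (median 0.12) and when scaled to detected probes (0.15), and 5 of 9 without siCtrl array 2. With Erm siRNA 9 of 9 were below 0 (median -0.20), Coa3 by -0.34 ± 0.25 and Surf1 by -0.27 ± 0.26, but 6 of 9 were above 0 without siCtrl array 2 (median 0.037). In siCtrl against untransfected cells 7 of 9 were above 0 (median 0.31), Cox11, which inserts copper, by 0.59 ± 0.27 and Cox15 by 0.39 ± 0.29. In siPea3 against siErm cells 6 of 9 were below 0, Cox15 by -0.35 ± 0.24, with Coa6 at 0.37 ± 0.27, and 7 of 9 were above 0 under the same scalings.

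Among regulators of mitochondrial genes 8 of 9 probes were below 0 in siPea3 against siCtrl cells, with Tfam, which packages and transcribes mitochondrial DNA, at -0.29 ± 0.24 and the mitochondrial RNA polymerase Polrmt at -0.27 ± 0.23. After quantile normalization 5 of 9 were above 0 (median 0.0071), and when scaled to detected probes 7 were (0.017). In siErm against siCtrl cells 5 of 9 were below 0, Tfam by -0.29 ± 0.26 and Esrra by -0.26 ± 0.23, and without siCtrl array 2 the split was 4 below and 5 above. Esrra, the nuclear receptor ERR alpha, averaged 36.2 ± 5.05 in siCtrl cells (n = 3) and 20.6 ± 1.13 in untransfected cells (SD, n = 2), the smallest p among these mitochondrial lists in that comparison (log2 0.80 ± 0.26, adjusted p = 0.239 in limma), while 7 of the 9 regulators were below 0. Of the Nrf1 probes, the one detected on 11 arrays differed by -1.46 ± 0.73 there and by -0.90 ± 0.61 in siPea3 against siErm cells, where 8 of 9 were below 0 as deposited, 4 of 9 when scaled to detected probes, and Ppargc1b differed by -0.67 ± 0.46. Assembly genes of complexes II and III (4 probes), of the ATP synthase (3) and carriers and uncouplers (2) also had 0 calls. Slc25a5, an adenine nucleotide carrier, averaged 710 ± 184 in siPea3 cells (n = 4) and 1099 ± 372 in siCtrl cells (SD, n = 3), with log2 -0.62 ± 0.29 (adjusted p = 0.385 in limma).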

How the data were processed

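Per the file headers, the authors deposited for each probe an assay normalized signal, an intensity on a linear scale. The deposited coefficient of variation is a ratio, per the file headers, read here as noise over signal, and a deposited flag marks failed measurements (145 to 438 per array), which were left out. The software, background correction and any scaling of the arrays were not given in the sources used here. Groups and replicate numbers came from the sample titles. Probes were named through the array's annotation table, which gives 1 symbol for 14411 probes.

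Signals were used as deposited, on the log2 scale. Probes whose signal was at least 3 times its noise on at least 2 arrays, with a value in every group (16724), entered 1 model of group means over 12 arrays, fitted by lmFit and eBayes of limma 3.58.1 (R 4.3.3). It had 8 residual and 3.06 prior degrees of freedom. Benjamini-Hochberg adjustment ran over all tested probes, and a call needed an adjusted p under 0.05. The ± of a log2 change is its standard error from the model, and that of a signal is the SD over arrays. The test was tried on simulated data. Precision is limited by the few arrays per group. Python 3.11.15 and matplotlib 3.10.9 drew the figures.

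Members and lists were chosen with earlier results of these data known. In each comparison and complex the 2 members with the smallest p are named, with the isoform sets, subunit c, the targeted genes and 2 genes of the cytochrome, complex IV assembly, tricarboxylic acid cycle and regulator lists. The members with the highest and lowest signal of each complex, which the rule also names, are given no comparison of level, since probes differ. Members whose arrays did not overlap, Uqcrc1, Cox7b2, the most and least variable members, Ndufb4, Ndufs4 and Slc25a5 were named after their values were seen.

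Same-numbered arrays deviated together between siPea3 and siCtrl cells (correlations of residuals across probes 0.109, 0.316 and 0.158) and between siErm and siCtrl cells (0.268, 0.308 and 0.220), so the numbers may pair those arrays. The sample titles do not say so. The main model has no term for the number, so its standard errors, intervals and p-values are unpaired. Array 4 of the siPea3 group, with no same-numbered partner, correlated more strongly with siCtrl array 3 (0.307) than siPea3 array 3 did. Same-numbered arrays did not deviate together between siPea3 and siErm cells (-0.043, 0.033 and 0.073). For siCtrl and untransfected cells the 2 pairs gave 0.080 and 0.067. Alternatives were 3 scalings, 2 filters, array weights, an intensity trend, a fit of the compared groups alone, the replicate block and leaving out each array.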

Additional observations from a re-analysis of the deposited data

Results flagged for a closer look

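In the siPea3 group, the only one with 4 arrays, 4 of 62 members had 1 array far from the other 3, about as many as the 1 in 20 that chance flags. Atp5d read 155.42 on array 1, above the other siPea3 arrays. Cox4i1 read 820.61 and Cox6b1 400.00 on array 4, both below the others. Cox7a1 read 1.23 on array 1, below the others and near background.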

How the results depend on the processing

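No member passed in any of the 61 alternative fits, a number counted over all comparisons together. Over the members with the 2 smallest p in each comparison and complex, recomputed under each alternative, 601 log2 changes kept their direction and 9 turned. Members named for other reasons are not in that count. Among these, Uqcrc1 in siPea3 against siCtrl cells turned without siCtrl array 2. Atp5g1, Ndufs1, Ndufs3, Ndufs7 and Ndufv1 turned in the same comparison when scaled on detected probes. Cox7c in siPea3 against siCtrl cells (-0.18) was 0.075 after quantile normalization and 0.14 when scaled on detected probes, and -0.26 to -0.02 with 1 array left out. Cox5b in siPea3 against siErm cells (-0.24) was 0.033 when scaled on detected probes, and -0.36 to -0.07 with 1 array left out. In siErm against siCtrl cells, Sdha (0.07) was -0.033 with array weights. Leaving out 1 array gave -0.10 to 0.25 for Sdha (-0.10 without siErm array 2), -0.33 to 0.035 for Cox4i1 (0.010 without siErm array 3, 0.035 without siCtrl array 2) and -0.46 to 0.079 for Sdhc (0.019 and 0.079 without the same arrays). The cause of these turns was not tested. The median of the members relative to all probes for siPea3 against siCtrl was -0.090 with no filter on dim probes, which adds mostly undetected probes to the comparison, against 0.07, and for siPea3 against siErm 0.043 with array weights and 0.047 unfiltered, against 0.17. For siPea3 against siCtrl it was 0.16 after quantile normalization, and for siErm against siCtrl -0.00058 after quantile normalization and -0.13 unfiltered, against -0.07. With 1 array left out it ranged from -0.02 to 0.20 for siPea3 against siCtrl, -0.15 to 0.03 for siErm against siCtrl, 0.01 to 0.26 for siCtrl against untransfected cells and 0.05 to 0.20 for siPea3 against siErm. With the replicate number as a block the relative medians were 0.12, -0.07, 0.19 and 0.19 and no member was called. Array 4 of the siPea3 group has no array of its number to be compared with and adds nothing to the blocked contrast. Using 1 probe per gene moved the median deviation of complex V on untransfected array 2 to 0.17, against 0.21.

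Calls over all probes moved more. For siPea3 against siCtrl they numbered 6 (4 higher, 2 lower), 22 after quantile normalization (17 higher, 5 lower), 35 scaled on detected probes (31 higher, 4 lower), 6 scaled on all probes (3 higher, 3 lower), 5 unfiltered, 87 with array weights, 43 with an intensity trend, 70 with the filter on every array of a group, 0 with the replicate block or the 2 groups alone, and 0 to 9 with 1 array left out. For siCtrl against untransfected cells they numbered 171, 289 after quantile normalization, 272 scaled on detected probes, 110 unfiltered, 83 with array weights, 280 with the stricter filter, 100 with the block, 0 with the 2 groups alone, and 82 to 336 with 1 array left out. For siPea3 against siErm they numbered 1, 13 after quantile normalization, 5 scaled on detected probes, 69 with array weights, 4 with a trend, 13 with the stricter filter, 0 with the block or the 2 groups alone, and 0 to 2 with 1 array left out. For siErm against siCtrl they were 0 throughout. Signals near background limit Cox7a1, Ndufb8, Ndufaf5 and Sdhb.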
